A study of Mus musculus with 4 samples.

Results

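The genes described here encode subunits, inhibitors and feedback regulators of the transcription factor NF-kB, compared between Mll1-/- and wild-type mouse embryonic fibroblasts. The members are all features of the deposited array table whose platform gene symbol is Nfkb1, Nfkb2, Rela, Relb, Rel, Nfkbia, Nfkbib, Nfkbie, Tnfaip3 or Birc3. That rule found 20 of 45018 features, which cover 9 of the 10 listed genes. Nfkb1, the gene of the p105 precursor and its product p50, is not analysed here. Rela had 11 features, Birc3 had 2, and the other 7 genes had 1 each. All 20 features held a value on all 4 arrays, so none was lost to a filter.

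Total RNA of Mll1-/- fibroblasts was hybridised together with RNA of wild-type fibroblasts on each of 4 2-colour Agilent expression arrays. The current symbol of Mll1 is Kmt2a, and its product methylates lysine 4 of histone H3. The labels describe each genotype as a fibroblast cell line grown in DMEM with 10% fetal bovine serum, with no NF-kB stimulus named, and give neither strain nor embryonic stage. On arrays 1 and 3 Cy5 marked the Mll1-/- RNA, and on arrays 2 and 4 Cy3 did. Genotype and cell line cannot be told apart in this design, and no label names separate cultures for the arrays, so p-values reflect only how these arrays spread, and that spread may be technical.

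Each value is the authors' log2 ratio of the channels of an array, and no channel intensity was used, so the level of a gene and its distance from background are unknown. No source states the direction. Mll1-/- over wild type was taken as likely from the order of the names in the sample titles and from Kmt2a, which then comes out lower, at −1.61, −1.58, −1.01 and −0.78 on arrays 1 to 4. Were the direction opposite, each rise given below would be a fall and each fall a rise. Kmt2a had 1 feature, and the labels do not give the deleted part of the gene, so this feature may check nothing. In bulk RNA, fewer cells of a type and less RNA per cell cannot be told apart.

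NF-kB is a family of dimeric transcription factors that share a DNA-binding Rel homology domain. In resting cells the dimers are held in the cytoplasm by IkB proteins, and inflammatory signals activate IkB kinases that mark the inhibitors for destruction, which frees the dimers to enter the nucleus. Several inhibitors, among them the products of Nfkbia, Nfkbie and Tnfaip3, are themselves encoded by NF-kB target genes and close negative feedback loops. Fibroblasts are known to answer tumour necrosis factor and interleukin signals through this pathway.

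The inhibitor and feedback genes were mostly lower in Mll1-/- fibroblasts, and the subunit genes were higher or did not pass the test. Nfkbia, Nfkbie, Tnfaip3 and Birc3 fell, and Nfkb2 and Rela rose, whereas Relb, Rel and Nfkbib did not pass (limma, with the dye as a term for each gene and Benjamini-Hochberg adjustment over 14222 genes, threshold 0.05). The changes were modest, since Birc3 alone differed by at least 2-fold. Among all genes tested, 59.2% passed, 29.1% as higher and 30.1% as lower in Mll1-/-. The 6 of 9 members that passed make up 66.7%, which is near this background. The 2 higher are 22.2% and the 4 lower 44.4% of 9 genes, against 29.1% and 30.1% of all genes. The median log2 ratio of the members was −0.18, against −0.00074 over all genes tested. By role, 2 of 4 subunit genes rose and none fell, with a median of 0.10, while 4 of 5 inhibitor and feedback genes fell and none rose, with a median of −0.52. This split depends on how genes were classed. Nfkb2 was counted as a subunit gene, though its precursor p100 also acts as an inhibitor. Birc3 was counted as a feedback gene and does not encode an IkB protein. The 2 higher calls dropped to 1, that of Nfkb2, without the dye term and with any array left out. Averaging array 1 with 2 and array 3 with 4 also left Nfkb2 alone. The 4 lower calls dropped to 2, those of Nfkbia and Nfkbie, without array 2. The same 2 were left with array 1 averaged with 4 and array 2 with 3. With the pairs 1 with 2 and 3 with 4 as random blocks, the same 2 were left too. Calls over all genes were also fewer with an array left out, at 2532 to 2860 higher and 2879 to 3005 lower, against 4140 and 4275 with all arrays. They were fewer with the random blocks too, at 3116 higher and 3258 lower.

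**Figure D1:**
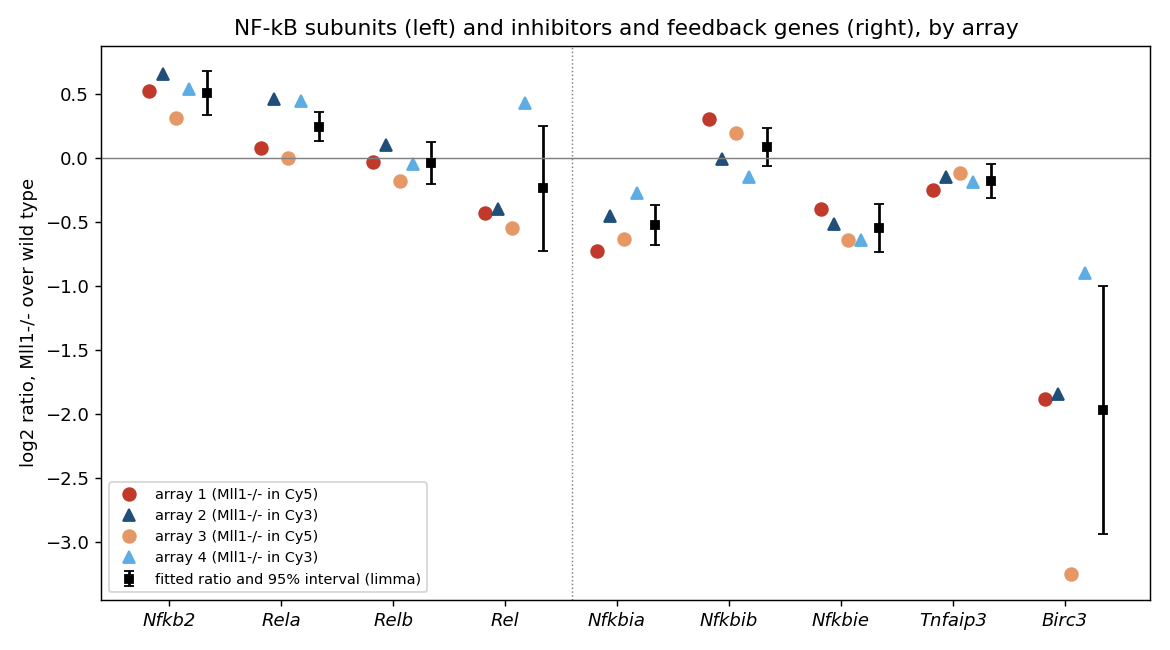
Log2 ratio of Mll1-/- over wild type (vertical axis) of each member on each array, circles where the Mll1-/- RNA carried Cy5 and triangles where it carried Cy3, with the fitted ratio and its 95% interval as black squares and bars. Nfkb2 lies above 0 on all 4 arrays, Nfkbia, Nfkbie, Tnfaip3 and Birc3 lie below 0 on all 4, and the Rela triangles lie well above its circles.

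The promoter windows of Nfkb2, Nfkbia and Nfkbie are shown because these genes passed the test under every setting tried, and that of Birc3 because its ratio was the farthest from 0. Each is the RefSeq window of assembly GRCm38.p6 that runs from 250 bases before the annotated start to 50 after it, written 5′ to 3′ along the gene. Capitals mark matches to the NF-kB consensus motif of 10 bases, searched on both strands. The windows are chr19:46304487-46304786 on the plus strand for Nfkb2 (the most upstream of its 3 windows), chr12:55492598-55492897 on the minus strand for Nfkbia, chr17:45555450-45555749 on the plus strand for Nfkbie and chr9:7873121-7873420 on the minus strand for Birc3.
Nfkb2: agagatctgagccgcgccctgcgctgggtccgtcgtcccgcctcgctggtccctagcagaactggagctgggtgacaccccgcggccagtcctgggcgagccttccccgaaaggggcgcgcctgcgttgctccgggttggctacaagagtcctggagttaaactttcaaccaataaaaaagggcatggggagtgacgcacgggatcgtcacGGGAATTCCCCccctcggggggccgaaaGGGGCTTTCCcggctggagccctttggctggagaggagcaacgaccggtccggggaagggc
Nfkbia: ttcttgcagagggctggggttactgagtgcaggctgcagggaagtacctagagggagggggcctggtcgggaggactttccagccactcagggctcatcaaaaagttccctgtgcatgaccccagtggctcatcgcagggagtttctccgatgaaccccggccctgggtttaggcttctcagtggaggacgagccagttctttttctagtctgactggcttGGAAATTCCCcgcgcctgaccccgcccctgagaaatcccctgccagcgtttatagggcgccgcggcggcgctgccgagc
Nfkbie: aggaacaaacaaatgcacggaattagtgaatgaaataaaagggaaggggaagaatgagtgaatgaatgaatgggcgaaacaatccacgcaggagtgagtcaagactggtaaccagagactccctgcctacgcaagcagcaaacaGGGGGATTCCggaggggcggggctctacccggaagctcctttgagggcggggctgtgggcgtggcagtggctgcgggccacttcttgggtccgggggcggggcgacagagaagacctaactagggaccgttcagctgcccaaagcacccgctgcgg
Birc3: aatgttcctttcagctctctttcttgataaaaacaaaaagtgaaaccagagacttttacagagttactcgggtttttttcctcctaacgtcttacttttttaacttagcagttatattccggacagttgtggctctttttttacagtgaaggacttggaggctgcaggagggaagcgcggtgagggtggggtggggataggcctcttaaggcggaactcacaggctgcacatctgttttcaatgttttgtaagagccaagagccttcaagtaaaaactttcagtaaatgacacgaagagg

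The Nfkb2 window held 3 matches, starting 39, 38 and 11 bases before the annotated start, of which the pair at 39 and 38 overlap. Nfkbia held 1 match, starting 29 bases before the start, and Nfkbie held 1, starting 106 bases before it. The Birc3 window held no match, which says only that these letters are not in this window. Of the 8 members with a promoter window in the table, 5 had a match in at least 1 window. The share of all genes with a match was not computed, and a gene with several windows has more chances of one. Rel held 2 overlapping matches and the upstream window of Tnfaip3 held 2, whereas Rela and Nfkbib, like Birc3, held none. Counted by window, 7 of 11 member windows held a match, against 4.51% of all 32851 windows of the same length. Windows of Nfkb2 overlap and share a match, and the windows compared were not matched for base composition. A match is a description of the letters and not evidence of binding. The windows also differed in CpG count, from 6 CpG dinucleotides in the downstream window of Tnfaip3 and 7 in that of Birc3 to 42 in that of Rel, with a median of 7 over all windows. Every other member window held at least 15. Relb and Nfkb1 are named here without a sequence.

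Among the subunits, Nfkb2 rose most. Its precursor protein p100 acts as an inhibitor that retains RelB, and its processed form p52 is the partner of RelB in the non-canonical pathway. Nfkb2 had log2 ratios of 0.52, 0.65, 0.31 and 0.53 on arrays 1 to 4. All 4 arrays lay above 0, with array 3 lowest. The mean of 0.50 ± 0.14 (SD, n = 4) is a 1.42-fold difference with a 95% interval of the fit from 0.33 to 0.68 on the log2 scale (limma, adjusted p = 0.00676). A lower ratio than that of Nfkb2 was found in 83.3% of all genes tested.

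Relb, which encodes the transactivating partner of p52, did not follow Nfkb2. Its log2 ratios were −0.03, 0.10, −0.18 and −0.05 on arrays 1 to 4, on both sides of 0. The mean was −0.04 ± 0.11, with an interval from −0.20 to 0.12 (limma, adjusted p = 0.553). That interval holds no change as large as that of Nfkb2. The log2 ratio of Nfkb2 exceeded that of Relb by 0.55, 0.55, 0.49 and 0.58 on arrays 1 to 4, a difference of 0.55 ± 0.04. This difference between the genes of partner subunits was steadier over the arrays than either gene's own ratio.

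Rela encodes p65, the transactivating subunit of the most common NF-kB dimer, and lies on chromosome 19, as does Nfkb2. Averaged over its 11 features, Rela had log2 ratios of 0.08, 0.46, −0.00245 and 0.44 on arrays 1 to 4. Arrays 2 and 4, where the Mll1-/- RNA carried Cy3, were high, and arrays 1 and 3, where it carried Cy5, were near 0. The fitted ratio was 0.24 ± 0.24, a 1.18-fold difference (limma, adjusted p = 0.0136), with an interval from 0.13 to 0.36 once the dye was in the model. Without the dye term the call was lost (adjusted p = 0.111), and it was also lost without array 1, 2, 3 or 4, where the log2 ratio ran from 0.22 to 0.26 with a highest adjusted p = 0.0898. Averaging array 1 with 2 and array 3 with 4 ended it too (adjusted p = 0.0893).

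The 11 features of Rela all carry the same transcript accession, so they share a target and are not replicates of the genotype. On array 1 they ran from 0.0028 to 0.14, on array 2 from 0.15 to 0.55, on array 3 from −0.09 to 0.10 and on array 4 from 0.32 to 0.51. Within an array the features were thus close, with SDs from 0.05 to 0.11, while the arrays of opposite dye stood apart. Tested singly, 10 of 11 features passed, with ratios from 0.21 to 0.28. The exception, the fifth feature, was at 0.05, 0.15, 0.10 and 0.32 on arrays 1 to 4 and averaged 0.15 (limma, adjusted p = 0.0711). It was the only Rela feature whose dye term did not reach an unadjusted p under 0.05, and no Rela feature passed for dye after adjustment (lowest adjusted p = 0.231).

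**Figure D2:**
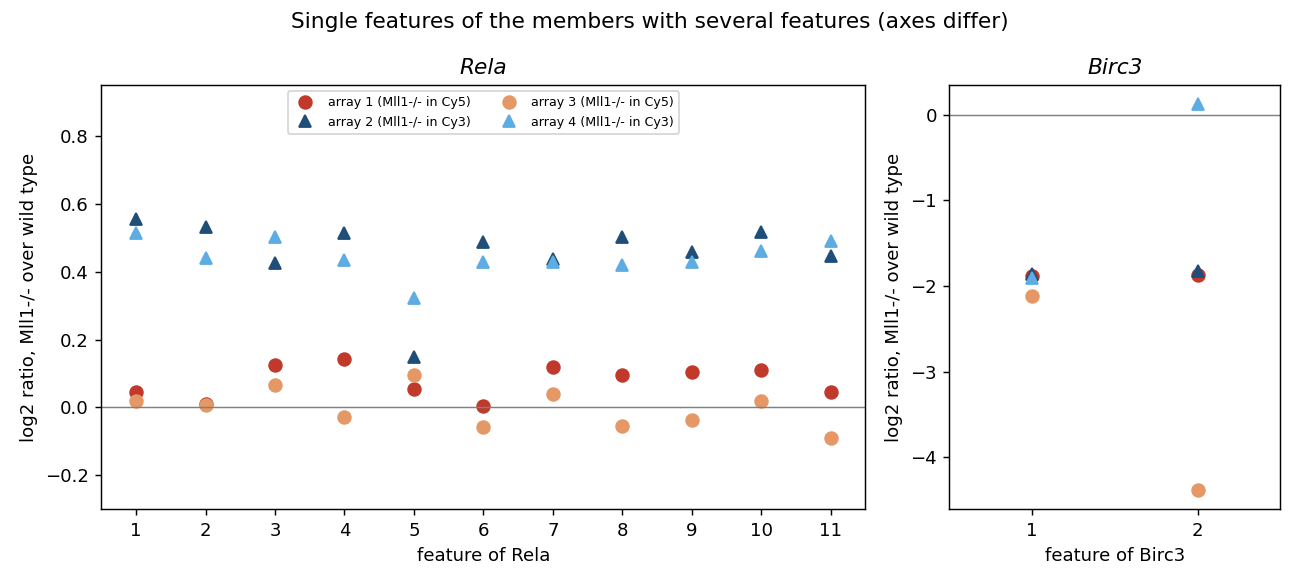
Log2 ratio of Mll1-/- over wild type (vertical axes, which differ between the panels) of each feature of Rela (left) and Birc3 (right) on each array. In 10 of 11 Rela features the triangles, with Mll1-/- in Cy3, lie between 0.42 and 0.55 and the circles between −0.09 and 0.14, and the second Birc3 feature spreads from −4.38 to 0.12 where the first lies between −2.12 and −1.86.

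Rel encodes c-Rel, a subunit best known from lymphoid cells. Its log2 ratios were −0.43, −0.40, −0.55 and 0.42 on arrays 1 to 4. Array 4 alone lay above 0. The mean of −0.24 ± 0.45 did not pass (limma, adjusted p = 0.289), with an interval from −0.73 to 0.25. Without array 4 the log2 ratio was −0.44 and passed (adjusted p = 0.0350), and without array 2 it was −0.03, so the value rests on which array is used.

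The classical inhibitors did not move alike. Nfkbia, on chromosome 12, encodes IkB alpha, the fast-acting inhibitor that NF-kB itself induces. It had log2 ratios of −0.73, −0.46, −0.63 and −0.28 on arrays 1 to 4. Every array lay below 0, and those with Mll1-/- in Cy5 were the lower ones. The mean of −0.52 ± 0.20 is a 1.44-fold fall with an interval from −0.68 to −0.37 (limma, adjusted p = 0.00507).

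Nfkbie, on chromosome 17, encodes IkB epsilon, another inhibitor induced by NF-kB. Its log2 ratios were −0.40, −0.52, −0.64 and −0.64 on arrays 1 to 4. All were below 0 and the spread was small, with no split by dye. The mean of −0.55 ± 0.12 is a 1.46-fold fall with an interval from −0.74 to −0.36 (limma, adjusted p = 0.00677). Of all genes tested, 17.7% had a lower ratio than Nfkbia and 16.9% a lower ratio than Nfkbie.

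Nfkbib, on chromosome 7, encodes IkB beta, which is known for slower turnover. It had log2 ratios of 0.30, −0.01, 0.20 and −0.15 on arrays 1 to 4. Arrays 1 and 3 lay above 0 and arrays 2 and 4 below it, the reverse of the dye order in Rela. The mean of 0.08 ± 0.20 did not pass (limma, adjusted p = 0.229), with an interval from −0.06 to 0.23. Nfkbia was below Nfkbib on all 4 arrays, by 0.61 ± 0.40 on average, and so was Nfkbie, by 0.63 ± 0.17. The log2 ratios of Nfkbia and Nfkbie differed by 0.02 ± 0.28, in no fixed order over the arrays.

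Both inhibitors that fell also stood apart from Rela, whose product they bind. The log2 ratio of Nfkbia minus that of Rela was −0.81, −0.91, −0.63 and −0.72 on arrays 1 to 4, a difference of −0.77 ± 0.12. Nfkbie minus Rela was −0.48, −0.97, −0.64 and −1.08, or −0.79 ± 0.28. The first of these differences was steadier than the ratio of Rela alone, since both genes had higher ratios on arrays 2 and 4. These are unequal ratios of transcripts and give no amount of protein or of inhibitor per subunit.

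Tnfaip3 encodes A20, a ubiquitin-editing enzyme that shuts off signalling to the IkB kinases. Its log2 ratios were −0.25, −0.15, −0.12 and −0.19 on arrays 1 to 4. The arrays agree closely and all lie below 0. The mean of −0.18 ± 0.06 is a 1.13-fold fall (limma, adjusted p = 0.0393), the smallest among the members that passed. The call was lost in 8 of 14 alternative settings, among them each array left out in turn, where the log2 ratio ran from −0.21 to −0.15 with a highest adjusted p = 0.185. Fits without an array also called fewer of all genes tested.

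Birc3 encodes the cellular inhibitor of apoptosis cIAP2, a ubiquitin ligase of tumour necrosis factor receptor complexes and a well-known NF-kB target. It lies on chromosome 9, as does Kmt2a. Its first feature had log2 ratios of −1.89, −1.86, −2.12 and −1.91 on arrays 1 to 4, and its second feature had −1.87, −1.83, −4.38 and 0.12. The features match on arrays 1 and 2 and part widely on arrays 3 and 4, in opposite directions. Taken alone, the first averaged −1.95 ± 0.12 (limma, adjusted p = 0.000781) and the second −1.99 ± 1.85 (adjusted p = 0.0635). Their mean, −1.88, −1.84, −3.25 and −0.90 on arrays 1 to 4, gave −1.97 ± 0.97, a 3.91-fold fall (limma, adjusted p = 0.0150). Only 3.15% of all genes tested had a lower ratio.

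The call of the 2-feature mean of Birc3 was lost without array 2 (−1.73, adjusted p = 0.0587), when array 1 was averaged with 4 and array 2 with 3 (adjusted p = 0.0551), and when the pairs 1 with 2 and 3 with 4 formed random blocks (adjusted p = 0.138). The genes whose 4 array values lay nearest to those of Birc3 were Notum, Cideb and Zic2, with root mean square differences of 0.43, 0.56 and 0.57 on the log2 scale over the 4 arrays. Notum stood at −1.68, −2.51, −3.26 and −1.40 on arrays 1 to 4. This likeness is to the 2-feature mean of Birc3, whose dip on array 3 comes from the second feature.

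In rising order of log2 ratio the members ran Birc3, Nfkbie, Nfkbia, Rel, Tnfaip3, Relb, Nfkbib, Rela and Nfkb2. Birc3 lay below Nfkbie on all 4 arrays, by 1.42 ± 0.96. Nfkbia lay below Rel on all 4, though by under 0.1 on arrays 2 and 3, at −0.06 and −0.09. Rela lay below Nfkb2 on all 4, by 0.26 ± 0.15. The other neighbours, Nfkbie with Nfkbia, Rel with Tnfaip3, Tnfaip3 with Relb, Relb with Nfkbib and Nfkbib with Rela, changed order between arrays. Of the 36 pairs of members, 28 kept the same order on all 4 arrays. The share over pairs of other genes was not computed, and each member enters several pairs. The sign was the same on all 4 arrays in 5 of 9 members, against 66.5% of all genes tested, with 1 member above 0 throughout (32.9% of all genes) and 4 below it (33.7%).

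**Figure D3:**
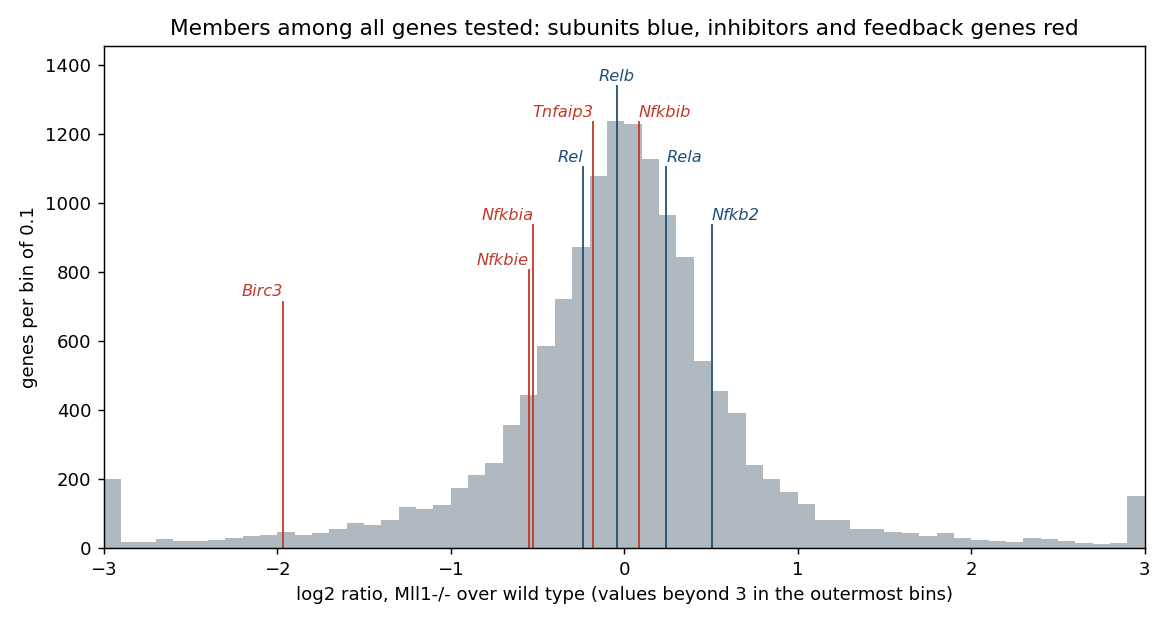
Number of genes per bin of 0.1 (vertical axis) by log2 ratio of Mll1-/- over wild type (horizontal axis, values beyond 3 gathered in the outermost bins) for the 14222 genes tested, with the members marked. Birc3 lies far down the lower tail at −1.97, and the other members lie between −0.55 and 0.50, within the bulk of the genes.

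The dye orientation moved with several of these ratios. Rela averaged 0.04 with Mll1-/- in Cy5 and 0.45 with Mll1-/- in Cy3. Nfkbia averaged −0.68 with Mll1-/- in Cy5 and −0.37 in Cy3, and Nfkbib averaged 0.25 in Cy5 and −0.08 in Cy3. These 3 members had an unadjusted p under 0.05 for the dye term, as did 14.8% of all genes tested, and no gene passed for it after adjustment (limma, 0% of 14222). A dye difference at least as large as that of Rela was found in 15.9% of genes. Birc3 and Rel had larger dye differences than Rela, but their dye terms did not reach an unadjusted p under 0.05. Birc3 averaged −2.57 with Mll1-/- in Cy5 and −1.37 in Cy3, and Rel averaged −0.49 in Cy5 and 0.01 in Cy3. In Birc3 the split lay in the second feature (−3.13 in Cy5 and −0.86 in Cy3) more than in the first (−2.01 and −1.89). Nfkbie averaged −0.52 with Mll1-/- in Cy5 and −0.58 in Cy3, and Tnfaip3 averaged −0.19 in Cy5 and −0.17 in Cy3, so both differed little between the orientations. The part of dye in the single ratios was not tested beyond this term.

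Other genes of the pathway were followed in 6 lists of 121 genes besides the members, chosen with earlier results of these data known. Of the 108 with a value on all arrays, 24 rose and 48 fell, and their median log2 ratio was −0.17. That is 66.7% in all against 59.2% of all genes (29.1% higher and 30.1% lower). By list, 88.2% of receptors, 69.2% of kinases and 63.6% of deubiquitinases and A20 partners passed. The atypical IkB genes (54.5%) and the adaptors (50%) lay under the share of all genes. Errors in the following are SDs over the 4 arrays, and every gene named as rising or falling in the 6 lists passed with the same sign on all of them.

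Among 17 receptor genes tested, 8 rose and 7 fell, with a median of 0.18. Cd40 (1.79 ± 0.32), Tnfrsf1b, the second tumour necrosis factor receptor (1.59 ± 0.04), and Tlr4, the endotoxin receptor (1.32 ± 0.35), rose. Cd14, the co-receptor that hands endotoxin to Tlr4, fell (−3.78 ± 0.12), as did Tlr1 (−1.05 ± 0.41) and Tnfrsf1a, the main tumour necrosis factor receptor of most cells (−0.94 ± 0.14). Both receptor genes for tumour necrosis factor thus changed, in opposite directions.

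Adaptors and ubiquitin ligases fell in 9 of 22 cases and rose in 2, with a median of −0.15. Peli2, a Pellino ligase that acts on interleukin receptor kinases, fell most (−3.46 ± 0.19). Rnf31, the catalytic subunit of the linear ubiquitin ligase complex (−0.68 ± 0.06), and Tradd, the adaptor of tumour necrosis factor receptors (−0.59 ± 0.03), also fell. The kinase gene Irak2 (1.53 ± 0.18) and Tollip (0.45 ± 0.08) rose.

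IkB kinases and their regulators showed small changes, with 5 rises and 4 falls among 13 and a median of 0.10. Tank (0.68 ± 0.12) and Azi2 (0.40 ± 0.09), both adaptors of the kinase TBK1, rose, as did Map3k7, which encodes TAK1 (0.36 ± 0.06). Map3k8, the gene of a kinase held by the Nfkb1 precursor (−0.71 ± 0.36), Tab1 (−0.50 ± 0.19) and Ikbke (−0.29 ± 0.03) fell. Without array 1, 2, 3 or 4 this list had 3 rises and 2 falls each time.

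Atypical IkB genes and nuclear regulators showed 2 rises and 4 falls among 11, with a median of −0.12. Bcl3, a nuclear IkB protein that binds p50 and p52 dimers, fell (−1.09 ± 0.30), as did Nkiras1, the gene of a Ras-like protein that binds IkB proteins (−1.10 ± 0.02), and Ing4 (−0.55 ± 0.24). Pdlim2, whose product promotes removal of nuclear p65 (0.72 ± 0.35), and Nkrf, an NF-kB repressing factor (0.66 ± 0.33), rose.

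Deubiquitinases and partners of A20 fell in 5 of 11 cases and rose in 2, with a median of −0.35. Tnip3, an A20-binding protein, fell most (−3.47 ± 0.67), followed by Usp21 (−0.82 ± 0.23) and Otulin, which removes linear ubiquitin chains (−0.36 ± 0.12). Otud7b (0.46 ± 0.10) and Cyld, the deubiquitinase of the cylindromatosis gene (0.14 ± 0.08), rose. The count of rises was 1 without array 1, 2, 3 or 4.

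Target genes fell more often than they rose. Since this list was chosen with earlier results of these data known, the shares below describe it and test nothing. Of 34 tested target genes other than the members, 19 (55.9%) fell and 5 (14.7%) rose, against 30.1% and 29.1% of all genes. Their median log2 ratio was −0.82, and 15 of the falls but 1 of the rises were at least 2-fold. Saa3 (−3.80 ± 0.26), Mmp13 (−3.22 ± 0.56) and the pentraxin gene Ptx3 (−3.21 ± 0.08) fell most, and Mmp9 (1.46 ± 0.53), Tnfaip2 (0.86 ± 0.16) and Csf1 (0.61 ± 0.08) rose. The 6 tested members that are also on the target list, Nfkb2, Relb, Nfkbia, Nfkbie, Tnfaip3 and Birc3, include Nfkb2, which rose, and Relb, which did not pass.

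**Figure D4:**
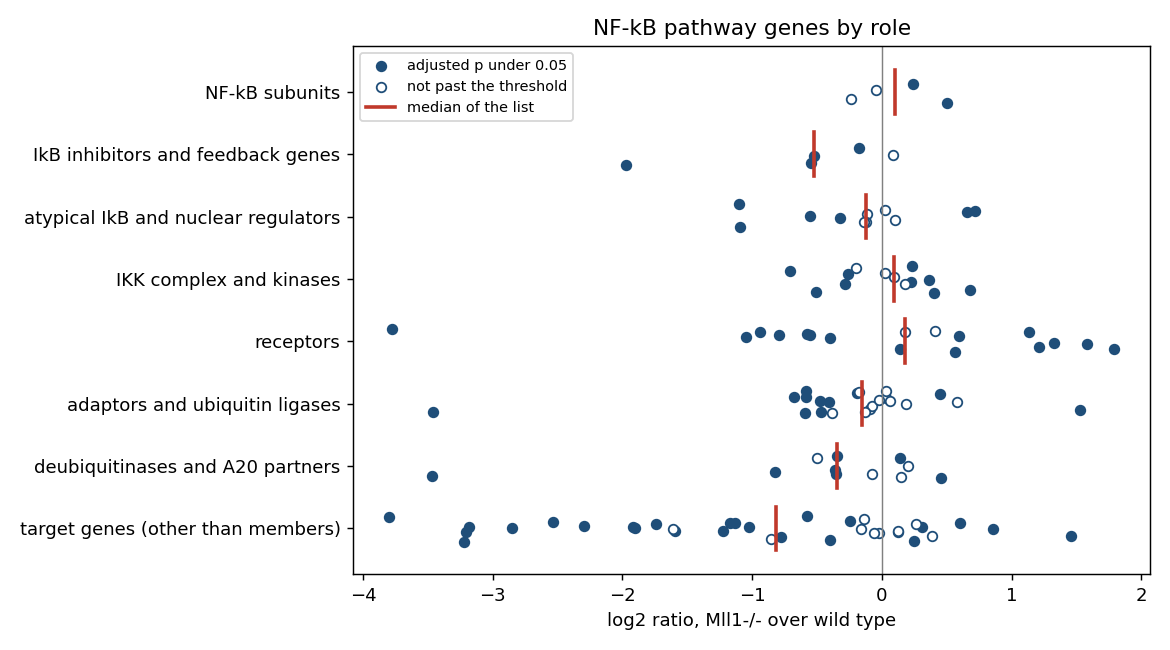
Log2 ratio of Mll1-/- over wild type (horizontal axis) of each tested gene, by role in the pathway (rows), filled where the adjusted p was under 0.05 and open otherwise, with the median of each list as a red bar. Target genes other than members reach from −3.80 to 1.46 around a median of −0.82, while the subunits lie between −0.24 and 0.50.

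The labelled cell type could be checked by ratios only. Values on all arrays were present for 10 of 12 fibroblast markers, and 5 of these rose and 4 fell. Collagen Col1a1 stood at 0.53, and the receptor gene Pdgfra at −2.03. Among 10 macrophage and blood markers 5 could be tested, and Lyz2 rose (2.27) while Cd14 (−3.78) and Fcer1g (−0.94) fell. Ptprc (0.57) and Tyrobp (0.83) did not pass. Of the markers not tested, Aif1 had values on 3 arrays and no feature of Adgre1 or Itgam had a value on more than 1. Cd68 and Csf1r had no feature named for them alone, so their lack of values tells nothing about the cells. Of 5 endothelial markers 3 were tested, of which Kdr rose (1.10) and Cdh5 passed at −0.39 with opposite signs by dye (0.42 and 0.46 with Mll1-/- in Cy5, −1.35 and −1.09 in Cy3), and none of the 3 tested of 5 epithelial markers passed. Their part in the NF-kB ratios was not tested.

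**Figure D5:**
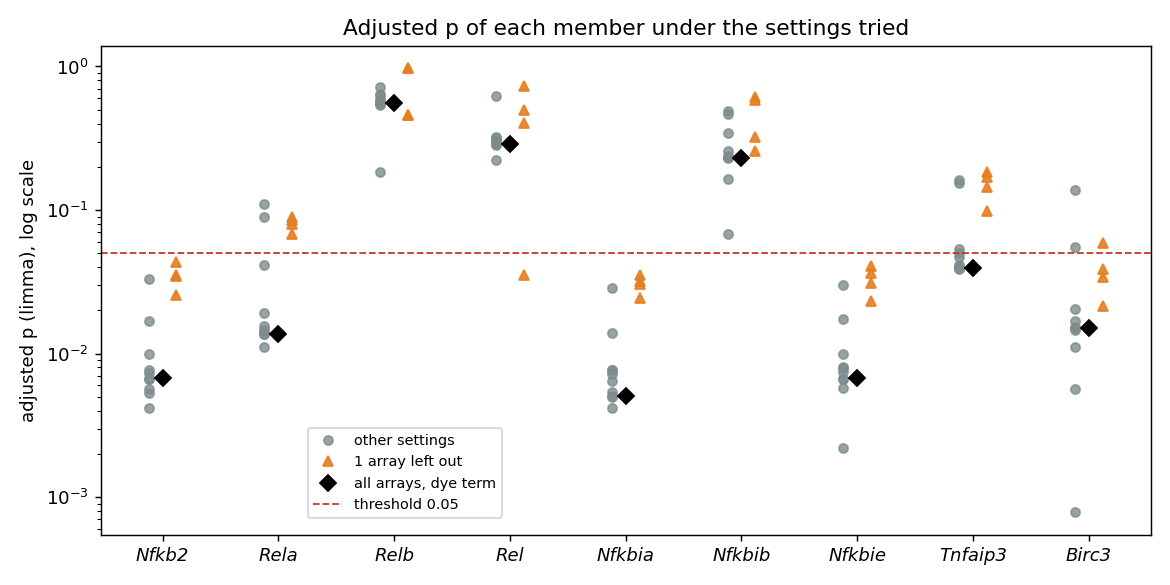
Adjusted p of each member (vertical axis, log scale) with all arrays and the dye term (black), with 1 array left out (orange) and under the other settings (grey), beside the threshold of 0.05 (dashed). Nfkb2, Nfkbia and Nfkbie stay under the threshold throughout, while the points of Rela, Tnfaip3, Birc3 and Rel lie on both sides of it.

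Across 14 alternative settings, Nfkb2 (log2 ratio 0.45 to 0.56), Nfkbia (−0.57 to −0.48) and Nfkbie (−0.61 to −0.49) passed in all 14. Birc3 passed in 11, Rela in 8, Tnfaip3 in 6, Rel in 1, and Relb and Nfkbib in none. No member changed sign in any of these settings, but in several of them none could. Every member's log2 ratio stayed the same without the dye term, with the robust variance prior and with features of 3 values. It also stayed the same with arrays averaged in pairs and with the random blocks. Those fits return the same mean over the arrays. With an array left out the sign could change, and Relb came to −0.0035 without array 3 and Rel to −0.03 without array 2.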

How the data were processed

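RNA of Mll1-/- and wild-type fibroblasts was labelled with Cy3 and Cy5, with dyes swapped on 2 of 4 arrays, per the labels' protocols. The deposited table holds the authors' log2 ratio per feature and array. Agilent Feature Extraction 10.1.1 is named in the submitters' processing notes. Background correction, normalization and what a blank means were not given in the sources used here, and log base and direction are inferred. The arrays' medians were −0.01, 0.03, −0.02 and 0.02, and 29054 features held a value on every array. The number of arrays limits the precision.

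Features were named through the platform annotation (33653 with 1 symbol, 56 with several, 11309 with none), and 33517 matched a RefSeq gene of GRCm38.p6. Features with 1 symbol and 4 values were averaged per gene (14222 genes). The genotype test used limma 3.58.1 under R 4.3.3 (lmFit, eBayes) with a gene-specific dye term, leaving 2 residual degrees of freedom, and Benjamini-Hochberg adjustment over all genes at 0.05. The script was tested on simulated data whose errors were independent between arrays, so that test does not cover arrays that vary in pairs. Because limma's duplicateCorrelation gave no estimate with the dye term, the block correlation was computed in closed form per gene and averaged the same way. It came to 0.73, so arrays of the same block resembled each other beyond the dye term. Each block held both dye orientations. The main test takes the arrays as independent, so its adjusted p-values may be too low and its intervals too narrow.

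The members and lists were chosen with earlier results of these data known. Named are all members, Kmt2a, up to 3 genes each way per pathway list (past the threshold, same sign on all arrays, largest ratios) and the 3 genes nearest to the member with the largest passing ratio. Marker genes are named outside this rule, chosen after their values were seen.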

Additional observations from a re-analysis of the deposited data

Results flagged for a closer look

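Rel had an array far from the others. Its log2 ratios were −0.43, −0.40 and −0.55 on arrays 1 to 3 and 0.42 on array 4, and the gap of array 4 to its nearest neighbour was 0.848 of the whole range, above the critical value of Dixon's test at the 95% level. In all, 23 sets of array values were checked (the 9 members, Kmt2a, and the single features of Rela and Birc3). Chance flags about 1 in 20 such sets, and 1 was found here.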

How the results depend on the processing

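The count of 2 members higher (Nfkb2 and Rela) was 1 without the dye term, 1 when array 1 was averaged with 2 and array 3 with 4, and 1 with any array left out. The count of 4 members lower was 2 when array 1 was averaged with 4 and array 2 with 3. It was 2 when the pairs 1 with 2 and 3 with 4 formed random blocks, and 2 to 4 with an array left out. The 4 found without array 4 held Rel in place of Tnfaip3. Over all genes, the 4140 higher were 2690 when array 1 was averaged with 2 and array 3 with 4, and 2532 to 2860 with an array left out (2665 without array 1, 2532 without array 2). The 4275 lower were 2923 with the same averaging, and 2879 to 3005 with an array left out. With the random blocks, 3116 were higher and 3258 lower. When array 1 was averaged with 4 and array 2 with 3, the counts rose to 4758 higher and 4914 lower. In the pathway lists, over 14 settings, rises ran from 3 to 6 (5 as reported) and falls from 2 to 5 (4) for the kinases, rises from 1 to 3 (2) for the atypical IkB genes, rises from 1 to 3 (2) for the deubiquitinases, rises from 2 to 4 (2) and falls from 5 to 12 (9) for the adaptors, and rises from 3 to 9 (6) for the target genes with members included, with 3 without array 1. Centring or scaling the arrays, the median over features and a robust variance prior moved no count of members. Keeping features with 3 values ended the call of Tnfaip3 (adjusted p = 0.0504). The causes were not tested. No block that pairs the genotypes was fitted, since each log2 ratio already compares both genotypes within an array. That does not remove likeness between arrays, for which the random blocks above were tried. Signal over background, which limits a ratio's precision, is unknown here.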
